A study of Mus musculus with 10 samples.

Results

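The 10 genes described here take up, carry, activate and burn fatty acids, or serve that traffic in capillary endothelium: Cd36, Gpihbp1, Lpl, Fabp4, Fabp5, Pparg, Acsl1, Cpt1a, Acadm and Hadhb. They were chosen by name. All 10 were counted among 24538 genes, and all 10 were among the 11823 genes that passed the filter on low counts. The libraries hold total RNA of live CD31+/CD45- cells, sorted from mouse lung. CD31 is an adhesion protein of endothelial cells, and CD45 is a surface phosphatase of leukocytes.

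The comparison was between 5 libraries of normal lung and 5 libraries of lung metastases, all from wild type C57BL6/J mice with an age tag of 8 to 10 weeks. The metastases grew after E0771-LG cells, a syngeneic mouse mammary tumour line, were injected into the tail vein of females aged 6 to 8 weeks. Nodules of less than 1 mm were cut out under a microscope, and each pool drew on 2 to 4 mice. Whether the normal libraries came from separate animals or pools is not given in the sources used here. Both groups share a 30 min digestion at 37 °C with the transcription inhibitors alpha-amanitin and actinomycin D in the buffer. The labels do not say that libraries of a group are independent, so p-values measure only the spread between these libraries.

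Capillary endothelium is the gate through which fatty acids leave the blood. Lipoprotein lipase, made mostly by the cells beneath the vessel, is carried to the capillary lumen and held there by GPIHBP1, where it cuts triglycerides out of lipoproteins. The scavenger receptor CD36 and small intracellular binding proteins of the FABP family then move the acids through the endothelial cell, and PPARgamma, a nuclear receptor that binds fatty acids, controls genes of this set. Acids kept by the cell are joined to coenzyme A, imported into mitochondria and oxidised in rounds of beta-oxidation.

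Counts assigned to genes came to 41.0 to 79.7 M in normal lung and 21.7 to 54.3 M in metastases. The gene of CD31, Pecam1, had 2415 ± 864 counts-per-million (CPM) in normal libraries and 644 ± 508 CPM in metastasis libraries (mean ± SD over 5 libraries a group). The gene of CD45, Ptprc, was at 17.8 ± 7.31 and 121 ± 25.6 CPM. Of 19 genes taken as general markers of endothelium (the pan-endothelial genes), 16 fell and 3 did not pass the test. Vwf, at 298 ± 196 and 296 ± 358 CPM, was among these 3. The mean level of the 19 genes in metastasis libraries 1 to 5 was 39.5, 24.9, 18.4, 8.96 and 8.20% of the normal mean. The normal libraries lay between 78.4 and 159% of that mean. In bulk RNA, fewer endothelial cells in the sort and less RNA of a gene per endothelial cell cannot be told apart, and this touches every value given here. CPM values were therefore also set against these 19 genes, and tests were repeated with libraries scaled to them.

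The uptake receptor was the most abundant of the 10 genes. Cd36 (chromosome 5, 17781690 to 17888801 of GRCm38, minus strand, 15 exons in the longest coding transcript) encodes the main surface receptor for long-chain fatty acids in capillaries. It was at 3266, 2399, 4244, 3164 and 3630.1 CPM in normal libraries 1 to 5, and at 1331, 323, 1271, 323 and 211 CPM in metastasis libraries 1 to 5. Every metastasis library lay below every normal library, and metastasis libraries 1 and 3 were the high ones of their group. Cd36 fell 4.83-fold in metastases (log2 fold change -2.27 ± 0.46 SE, edgeR adjusted p = 0.00109), but stood at 0.012 (adjusted p = 0.986) when libraries were scaled to the pan-endothelial genes. That scaling moved the median of all tested genes from 0.06 to 2.80 on the log2 scale. Within libraries 1 and 2 alone Cd36 was at -1.76 (adjusted p = 0.0918), and within libraries 3 to 5 alone it fell by 2.63 (adjusted p = 0.0102).

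Because Cd36 is a classical target of PPARgamma, the 250 bases before a RefSeq start site of it (GRCm38.p6) are shown. Those before a start of Acadm, an oxidation gene of the same receptor family's target set, are shown for comparison. The GENCODE M21 annotation lists 6 start sites for Cd36 and 10 for Acadm, and the Cd36 window lies inside the span of the gene given above. The Cd36 window is chr5:17835897-17836146 on the minus strand, and the Acadm window is chr3:153944644-153944893 on the minus strand. Both are written 5′ to 3′. Capitals mark every match, on either strand, to the nuclear receptor recognition motif AGGTCA, to the box with the letters CCAAT, to the GC box with the letters GGGCGG and to the TATA box with the letters TATAAA.
Cd36: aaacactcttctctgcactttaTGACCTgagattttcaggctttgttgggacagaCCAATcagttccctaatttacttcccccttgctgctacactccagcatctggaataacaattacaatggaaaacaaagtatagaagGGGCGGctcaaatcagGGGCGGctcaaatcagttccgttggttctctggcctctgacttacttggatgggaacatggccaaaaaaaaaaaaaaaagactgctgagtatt
Acadm: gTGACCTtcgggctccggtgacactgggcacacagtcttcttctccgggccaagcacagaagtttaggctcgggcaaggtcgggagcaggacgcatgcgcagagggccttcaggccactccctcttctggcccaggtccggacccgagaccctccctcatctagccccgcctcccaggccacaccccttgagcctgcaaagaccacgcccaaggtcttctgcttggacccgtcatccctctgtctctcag
The AGGTCA motif lies 228 bases before the start in Cd36 and 249 bases before it in Acadm, on the opposite strand in both. The Cd36 window also holds a CCAAT box 195 bases before the start and GC boxes 109 and 93 bases before it. AGGTCA is found in 14.0% of 32851 RefSeq promoter windows of this length, CCAAT in 33.8%, GGGCGG in 32.7% and TATAAA in 12.4%. The motifs describe letters only. No binding was measured in these libraries, and of the pair Cd36 fell while Acadm, described further on, did not pass the test in either direction. RefSeq windows were matched for 6 of the 10 genes, not for Gpihbp1, Lpl, Fabp4 and Fabp5. In windows not shown, AGGTCA lies 94 bases before the start in Cpt1a, and 28 and 9 bases before starts of Pparg. It is absent from another window of Pparg and from those of Hadhb and Acsl1.

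**Figure D1:**
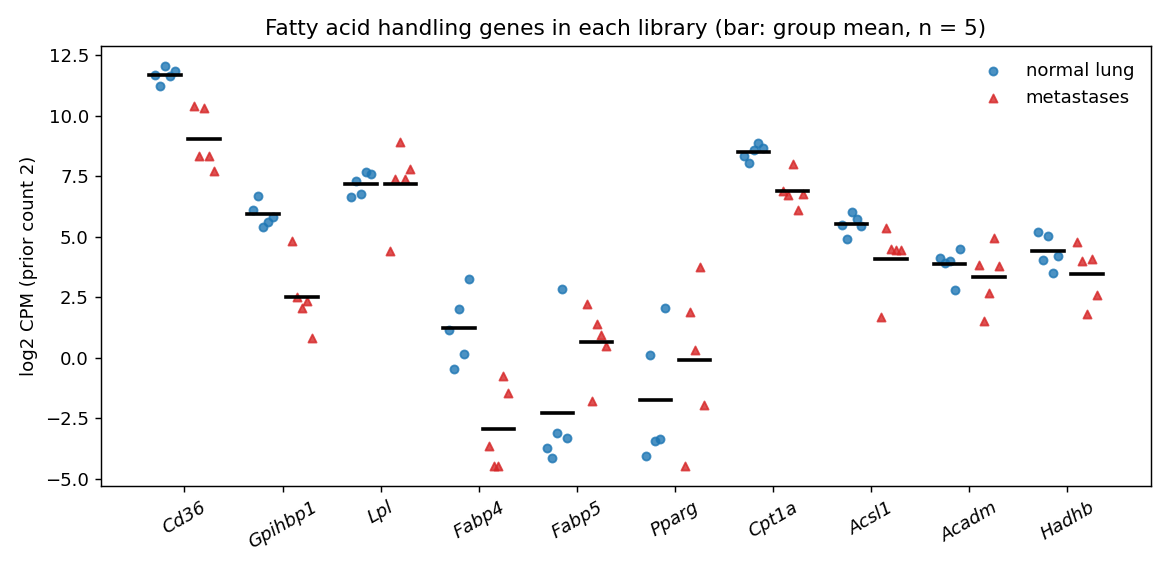
Level of each of the 10 genes in each library, as log2 CPM with a prior count of 2 (vertical axis), with circles for 5 normal lung libraries, triangles for 5 metastasis libraries and a bar at each group mean. The groups do not overlap for Cd36, Gpihbp1, Fabp4 and Cpt1a, and they overlap for the other genes; Fabp5 in normal library 4 and Lpl and Acsl1 in metastasis library 1 lie away from the rest of their groups.

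Of the genes of lipolysis at the vessel wall, the anchor fell and the lipase did not pass the test. Gpihbp1 (chromosome 15, 75596628 to 75599481, plus strand, 4 exons), the capillary anchor and carrier of lipoprotein lipase, was at 69.3, 102, 42.6, 48.3 and 56.6 CPM in normal libraries 1 to 5. It was at 27.9, 5.69, 4.12, 5.02 and 1.69 CPM in metastasis libraries 1 to 5. Metastasis library 1 kept the highest level of its group, yet it still lay below the lowest normal library. Gpihbp1 fell 7.18-fold in metastases (-2.84 ± 0.81, edgeR adjusted p = 0.0137) and stood at -0.70 (adjusted p = 0.533) with scaling to the pan-endothelial genes. It fell by 3.97 without metastasis library 1, and was no longer called within libraries 1 and 2 alone (-2.33, adjusted p = 0.255) or without metastasis libraries 4 and 5 (-2.36, adjusted p = 0.0858).

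Lpl (chromosome 8, 68880491 to 68907448, plus strand, 10 exons), the lipase itself, was at 100, 155, 108, 202 and 191 CPM in normal lung. In metastases it was at 20.9, 169, 485, 166 and 219 CPM. Metastasis library 1 lay below all normal libraries and library 3 above them, and the other 3 lay among or just above them. Lpl did not pass the test (0.48 ± 0.53, edgeR adjusted p = 0.588), and without metastasis library 3 its value was -0.12 (adjusted p = 0.905). With scaling to the pan-endothelial genes Lpl was higher in metastases, by 3.29 (adjusted p = 0.000635). The median of all tested genes was 2.80 with that scaling.

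**Figure D2:**
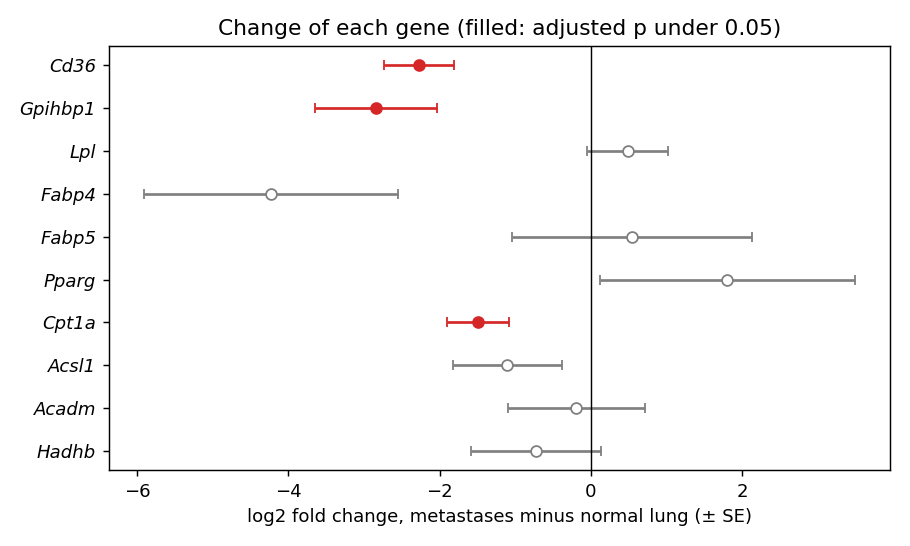
Log2 fold change of each gene, metastases minus normal lung (horizontal axis), with SE as bars; filled points have an adjusted p under 0.05 in the edgeR fit over all tested genes. Cd36, Gpihbp1 and Cpt1a are the filled points, at -2.27, -2.84 and -1.49, and their calls are lost with scaling to the pan-endothelial genes, where Cd36 and Cpt1a stand at 0.012 and 1.11.

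The intracellular fatty acid binding proteins were scarce. Fabp4 (chromosome 3, 10204088 to 10208576, minus strand, 4 exons), the binding protein of adipocytes and of capillary endothelium in heart and other tissues, was at 2.16, 0.681, 4.02, 1.07 and 9.32 CPM in normal lung. It was at 0.0338, 0, 0, 0.552 and 0.317 CPM in metastases. These are 41 to 345 counts per normal library against 0 to 19 per metastasis library. A count of 0 allows up to 0.0459 CPM in metastasis library 2 and 0.149 CPM in metastasis library 3, by 3 counts of the total and for counting error only. The groups did not overlap, but Fabp4 missed the threshold (-4.23 ± 1.67, edgeR adjusted p = 0.0776). It was called lower with DESeq2 (-4.25, adjusted p = 0.0288), with a replicate block (-5.45, adjusted p = 0.0384), without metastasis libraries 4 and 5 (-8.07, adjusted p = 0.0394) and with limma on FPKM values (-2.55, adjusted p = 0.0116, on the log2(FPKM + 1) scale). With scaling to the pan-endothelial genes Fabp4 was at -1.02 (adjusted p = 0.574), and its ratio to these genes differed by -1.61 (exact permutation p = 0.278, adjusted 0.317).

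Fabp5 (chromosome 3, 10012548 to 10016607, plus strand, 4 exons), the epidermal-type binding protein also found in endothelium and macrophages, is a neighbour of Fabp4, with 196028 bases between their start sites. It was at 0.0306, 0.012, 0.0706, 7.15 and 0.054 CPM in normal lung and at 4.64, 0.245, 2.58, 1.86 and 1.34 CPM in metastases. Normal library 4, with 274 counts, stood alone above every metastasis library, while the other normal libraries had 1 to 3 counts. Fabp5 did not pass the test (0.54 ± 1.59, edgeR adjusted p = 0.855), and without normal library 4 its value was 5.59 (adjusted p = 0.0409). In that fit Fabp5 passed the filter on low counts only through metastasis libraries, and the library left out was the high one. The value without normal library 4 is therefore a description and not a test. The Fabp5 transcript has 5 processed pseudogenes at 93.6 to 98.3% identity in the GENCODE M21 annotation, so its count is uncertain.

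Pparg (chromosome 6, 115360951 to 115490399, plus strand), the gene of PPARgamma, was at 0.0153, 1.02, 0.0471, 0.0522 and 4.13 CPM in normal lung. It was at 0, 3.63, 1.19, 13.3 and 0.212 CPM in metastases. Each group held libraries near 0 and libraries above 1 CPM, so the groups overlapped through most of their range. Pparg did not pass the test (1.80 ± 1.69, edgeR adjusted p = 0.513), and without metastasis library 4 its value was 0.21 (adjusted p = 0.954). An antisense gene, Gm44079, overlaps Pparg, and the use of read strand is not given in the sources used here.

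The next genes activate fatty acids and bring them into mitochondria. Acsl1 (chromosome 8, 46471037 to 46536051, plus strand, 21 exons), which joins long-chain acids to coenzyme A, was at 45.1, 30.2, 64.3, 53.2 and 42.7 CPM in normal lung and at 3.18, 40.7, 22.2, 21.6 and 21.8 CPM in metastases. In 4 of 5 metastasis libraries it lay below all normal libraries, and metastasis library 2 lay among them. It did not pass the test (-1.11 ± 0.72, edgeR adjusted p = 0.313), and its value was 1.68 with scaling to the pan-endothelial genes.

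Cpt1a (chromosome 19, 3322334 to 3385733, plus strand, 19 exons) encodes the enzyme of the outer mitochondrial membrane that sets the rate of fatty acid import. It was at 323, 263, 384, 469.7 and 403 CPM in normal lung and at 119, 104, 255, 69.3 and 109 CPM in metastases. Metastasis library 3, at 255 CPM, came near the lowest normal library, at 263 CPM, and the other metastasis libraries lay well below. Cpt1a fell 2.81-fold in metastases (-1.49 ± 0.41, edgeR adjusted p = 0.0112), but stood at 1.11 (adjusted p = 0.11) with scaling to the pan-endothelial genes. It was no longer called within libraries 1 and 2 alone (-1.37, adjusted p = 0.264), within libraries 3 to 5 alone (-1.55, adjusted p = 0.0512) or without metastasis libraries 4 and 5 (-1.25, adjusted p = 0.0825).

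Neither gene of the mitochondrial oxidation spiral passed the test. Acadm (chromosome 3, 153922357 to 153944632, minus strand, 12 exons), the dehydrogenase that opens rounds on medium-chain acyl-CoA, was at 17.3, 14.9, 15.8, 6.94 and 22.6 CPM in normal lung. It was at 14.1, 2.79, 6.30, 31.0 and 13.6 CPM in metastases. The metastasis libraries spread on both sides of the normal range, and Acadm did not pass the test (-0.19 ± 0.91, edgeR adjusted p = 0.914). Scaling to the pan-endothelial genes put Acadm higher in metastases, by 2.89 (adjusted p = 0.0227), beside a median of 2.80 over all tested genes.

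Hadhb (chromosome 5, 30155248 to 30184593, plus strand, 16 exons), the thiolase subunit of the trifunctional protein for long-chain rounds, was at 36.2, 16.1, 32.8, 11.3 and 18.2 CPM in normal lung. It was at 27.1, 15.7, 3.47, 17.0 and 6.03 CPM in metastases. Metastasis libraries 3 and 5 lay below all normal libraries and the rest lay among them, and Hadhb did not pass the test (-0.73 ± 0.86, edgeR adjusted p = 0.618; 1.87 with pan-endothelial scaling). Its partner subunit Hadha starts 86 bases away on the other strand and was at -0.65 ± 0.72 (adjusted p = 0.591). Processed pseudogenes match the Hadhb transcript at 99.8 and 97.6% identity and the Acadm transcript at 93.5%, so the counts of both are uncertain.

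Of the 10 genes, 3 fell (Cd36, Gpihbp1 and Cpt1a), 0 rose and 7 did not pass the test with edgeR, and 4 fell and 0 rose at an unadjusted p under 0.05. Over all tested genes, 20.2% were called, 12.0% as risen and 8.22% as fallen. In 4 of the 10 genes (the 3 that fell and Fabp4) every metastasis library lay below every normal library, against 6.17% of all tested genes. Fabp4 passed the filter on low counts through its level in normal libraries, and the 10 genes were chosen with earlier results of these data known. The 4 of 10 is therefore a description and not a test. The median log2 fold change of the 10 genes was -0.92, and that of all tested genes was 0.06. With pan-endothelial scaling the counts were 0 fallen and 3 risen (Lpl, Pparg at 4.78 with adjusted p = 0.028, and Acadm), where 7090 of all tested genes rose and 19 fell. DESeq2 called 0 of the 10 genes risen, and Fabp4 besides the 3 fallen genes.

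Levels between genes were compared per transcript length, in the authors' FPKM. In normal lung Cd36 led at 644 ± 94.9 FPKM, before Gpihbp1 at 185 ± 59.6, Cpt1a at 109 ± 35.2, Lpl at 31.0 ± 9.26 and Acsl1 at 13.8 ± 4.81 FPKM (SD, n = 5). The libraries of Gpihbp1 and Cpt1a overlapped, and so did those of Acsl1, Fabp4 (9.24 ± 9.07), Acadm (8.17 ± 4.23) and Hadhb (6.82 ± 3.20). Pparg and Fabp5 were last, at 0.933 ± 1.6 and 0.509 ± 1.07 FPKM, and overlapped each other. All other neighbours in this order were separated in every normal library.

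In metastases Cd36 was again first, at 129 ± 111 FPKM, with Lpl at 43.3 ± 41.9, Cpt1a at 34.5 ± 19.6 and Gpihbp1 at 24.2 ± 26.1 FPKM. Fabp4 was last at 0.334 ± 0.458 FPKM and listed at 0 in 3 libraries. Every pair of neighbours in the metastasis order overlapped, so this order is not resolved by the 5 libraries. The order of single libraries was not the same in counts and FPKM for several genes. For Gpihbp1, normal library 2 was highest in CPM, and normal library 5 was highest in FPKM, at 279. For Hadhb, normal library 1 was the highest of its group in CPM (36.2) and the lowest in FPKM (3.91), and for Acadm it was second highest in CPM (17.3) and lowest in FPKM (3.41).

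Each gene was then set against the mean of the 19 pan-endothelial genes in the same library. The log2 ratio of Cd36 to these genes had a mean of 2.83 ± 0.62 in normal libraries and of 2.74 ± 0.87 in metastasis libraries (SD over 5 each), a difference of -0.09 (exact permutation p = 0.849, two-sided). The ratio of Cd36 lay between 2.16 and 3.49 in normal lung and between 1.49 and 3.91 in metastases, so a difference within that spread could not be seen. Gpihbp1 differed by -0.85 (exact permutation p = 0.103) and Cpt1a by 0.97 (exact permutation p = 0.111).

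The genes with an unadjusted p under 0.05 on this ratio were Fabp5, with a difference of 5.51 (exact permutation p = 0.0159), Hadhb with 1.64 (exact permutation p = 0.0318) and Acadm with 2.06 (exact permutation p = 0.0476), each with the higher ratio in metastases. Lpl differed by 2.56 (exact permutation p = 0.0556): its ratio was -2.87, -1.74, -1.80, -0.98 and -0.92 in normal libraries and -3.12, 0.56, 2.52, 2.01 and 2.53 in metastasis libraries. In 4 of 5 metastasis libraries Lpl was above the pan-endothelial mean, and in every normal library it was below. As the pan-endothelial level was lower in every metastasis library than in any normal library, a gene of unchanged CPM gains in this ratio. With libraries scaled to these genes, the median log2 fold change of all tested genes was 2.80. A higher ratio alone is therefore not particular to the genes named. After Benjamini-Hochberg adjustment over the 10 genes 0 passed (the lowest adjusted p was 0.139), where the smallest p that 252 splits of 5 against 5 can give is 0.00794. Without metastasis library 1, Lpl (3.57) and Acsl1 (2.05) passed (adjusted exact permutation p = 0.0397 for both).

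**Figure D3:**
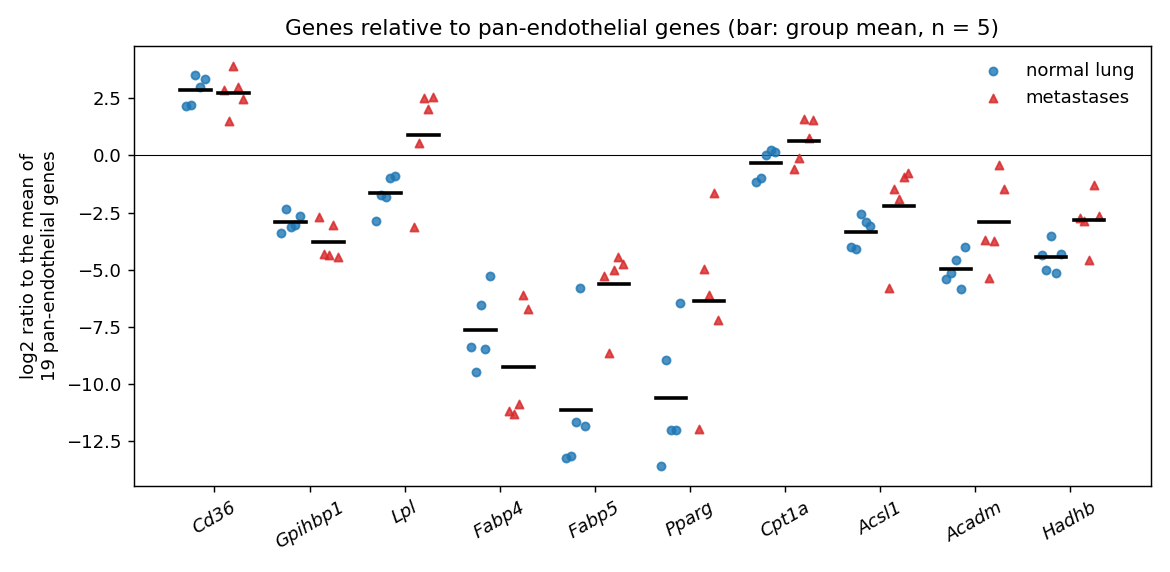
Log2 ratio of each gene to the mean of 19 pan-endothelial genes of the same library (vertical axis), with circles for 5 normal lung libraries, triangles for 5 metastasis libraries and bars at group means. Cd36 has group means of 2.83 and 2.74, and in 4 of 5 metastasis libraries Lpl lies above all normal libraries. After adjustment, 0 of 10 genes pass the exact permutation test. A gene of unchanged CPM has a higher ratio in metastases, since the pan-endothelial level is lower there.

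Of 7 pairs of these genes, 0 passed after adjustment over the pairs. Lipase minus anchor (Lpl minus Gpihbp1) differed between the groups by 3.41 on the log2 scale (1.26 ± 0.68 in normal lung and 4.67 ± 3.01 in metastases; exact permutation p = 0.0476, adjusted 0.148). In metastasis libraries 2 to 5 Lpl exceeded Gpihbp1 by 4.88, 6.86, 5.03 and 6.98 on the log2 CPM scale, and in metastasis library 1 it was at -0.42. Fabp5 minus Fabp4 differed by 7.12 (exact permutation p = 0.0318, adjusted 0.148) and Pparg minus Cd36 by 4.30 (exact permutation p = 0.0635, adjusted 0.148). The other 4 pairs (Cd36 minus Gpihbp1, Acsl1 minus Cpt1a, Cpt1a minus Hadhb and Acadm minus Hadhb) differed by 0.76, 0.17, -0.67 and 0.42, with exact permutation p from 0.262 to 0.857.

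The genes whose pattern over the 10 libraries was most like each member were found by the root mean square distance of gene-centred log2 CPM, among 11175 genes. Nearest to Cd36 were Adgrf5, an adhesion receptor of lung endothelium (distance 0.17), Calcrl, the receptor of adrenomedullin (0.19), and Tmtc2 (0.19). Nearest to Gpihbp1 were Lifr, the receptor of leukaemia inhibitory factor (0.48), Gata2, a transcription factor of endothelium and blood (0.49), and Slc43a3 (0.50). Since these genes were picked for their likeness to a member over the same libraries, their own difference between the groups follows from the choice and is not given as a result. Nearest to Lpl were Naa35, Ube2w and Smndc1 at 0.29 to 0.52. The nearest genes to the scarce members were farther: Zfp455, Rab2b and Med29 at 0.69 to 1.01 for Fabp4, Cpe, Trub1 and Ccdc38 at 1.16 to 1.29 for Fabp5, and Apbb3, Gsdmcl-ps and Nqo1 at 1.44 to 1.48 for Pparg.

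The other genes of the pathway were taken from 7 lists with 108 genes, of which 71 were tested. Of these 5 rose, 4 fell and 62 did not pass the test, with a median of -0.23. Over all tested genes 12.0% rose and 8.22% fell. With pan-endothelial scaling 41 of the pathway genes rose and 0 fell, where 7090 of 11823 tested genes rose and 19 fell. In the list of uptake and binding 5 of 17 genes were tested, 2 rose and 0 fell (median 2.02). Lrp1, an endocytic receptor of lipoproteins and many other ligands, rose from 3.78 ± 0.68 to 296 ± 114 CPM (6.29 ± 0.53, adjusted p = 1.34e-08). Slc27a1, a fatty acid transport protein, rose from 0.163 ± 0.101 to 13.4 ± 22.2 CPM (6.34 ± 1.51, adjusted p = 0.00402), and metastasis library 2 held 53.0 CPM of it. Slc27a1 passed the filter on low counts through its level in metastasis libraries, as normal libraries held 2 to 18 counts.

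In the list of lipolysis 9 of 14 genes were tested, 1 rose and 1 fell (median -1.26). Mgll, the lipase of monoglycerides, fell from 88.0 ± 71.6 to 8.67 ± 6.71 CPM (-3.34 ± 0.78, edgeR adjusted p = 0.00319), and stood at -0.44 with pan-endothelial scaling. Angptl4, a secreted inhibitor of lipoprotein lipase, rose from 0.48 ± 0.755 to 12.6 ± 13.1 CPM (4.71 ± 1.55, adjusted p = 0.0325), though metastasis libraries 1 and 3 held 0.44 and 0.248 CPM, within the normal range. The call of Angptl4 was lost when any of 6 libraries was left out in turn (normal 1, 2, 3 and 5, metastasis 2 and 5), with adjusted p up to 0.0931. In the list of activation 8 of 11 genes were tested, 2 rose and 0 fell (median 0.49). Acsl6, a long-chain synthetase, rose from 0.432 ± 0.213 to 38.5 ± 31.9 CPM (6.47 ± 1.07, adjusted p = 0.000141), and Acot7, a thioesterase that frees acids from coenzyme A, from 1.34 ± 1.18 to 43.0 ± 25.0 CPM (5.01 ± 1.05, adjusted p = 0.00141).

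Of 22 other genes of mitochondrial beta-oxidation 20 were tested, and 0 passed in either direction with edgeR (0 risen and 1 fallen at an unadjusted p under 0.05; median -0.45). The most abundant were Acadl, the long-chain dehydrogenase, at 107 ± 66.3 and 43.6 ± 31.0 CPM (-1.30 ± 0.63, adjusted p = 0.156), and Hadha, the partner of Hadhb, at 52.5 ± 35.2 and 33.4 ± 16.8 CPM. In peroxisomal beta-oxidation 8 of 10 genes were tested, 0 rose and 2 fell (median -0.89). The larger fall was that of Acaa1a, a thiolase (-3.06 ± 1.01, adjusted p = 0.0334), which stood at 0.32 with pan-endothelial scaling. The call of Acaa1a rests on few libraries: its value was -2.08 (adjusted p = 0.216) without normal library 1, and the call was also lost without metastasis library 1 or 4.

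Among transcription factors and coregulators 10 of 16 genes were tested, 0 rose and 1 fell (median 0.08). Foxo1, a forkhead factor of endothelial metabolism, fell from 185 ± 28.3 to 53.2 ± 39.1 CPM (-1.80 ± 0.58, edgeR adjusted p = 0.0282), and stood at 0.64 with pan-endothelial scaling. Its adjusted p was 0.052 without normal library 1 and 0.0521 without normal library 5. Of 18 PPARgamma targets and lipid droplet genes 11 were tested and 0 passed with edgeR (0 risen and 2 fallen at an unadjusted p under 0.05; median -0.49). The most abundant were Ucp2 at 169 ± 138 and 67.9 ± 40.1 CPM (-1.32 ± 0.58, adjusted p = 0.115) and Adipor1 at 104 ± 55.0 and 127 ± 59.2 CPM (0.29 ± 0.49, adjusted p = 0.738).

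**Figure D4:**
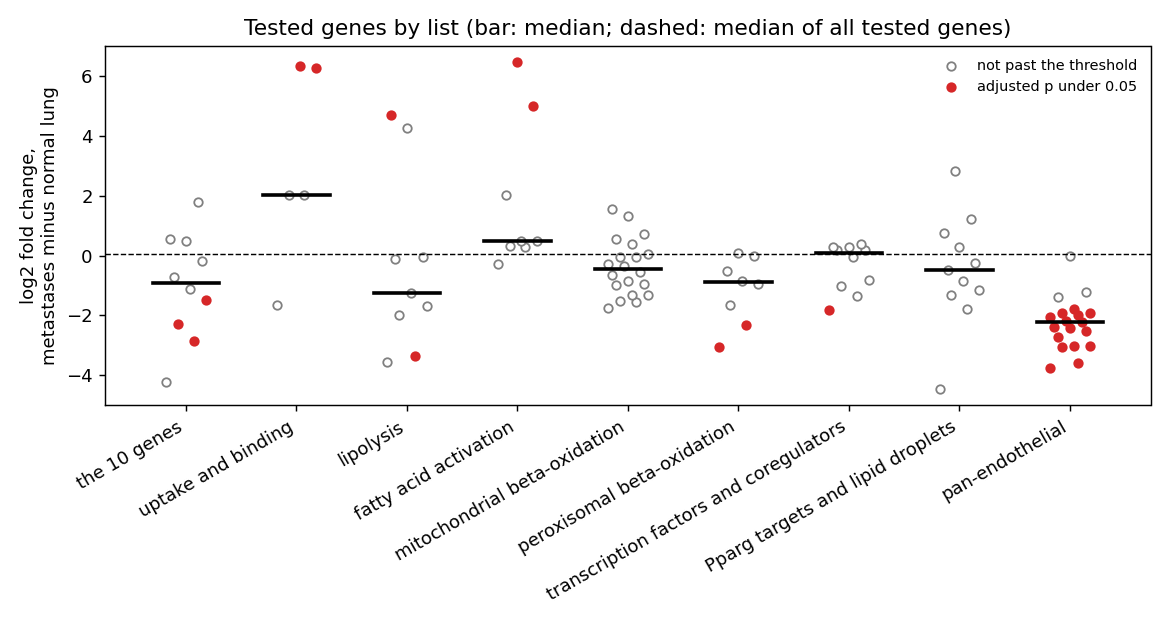
Log2 fold change, metastases minus normal lung (vertical axis), of each tested gene of the 10 described genes, of 7 fatty acid pathway lists and of the pan-endothelial list; filled points have an adjusted p under 0.05, bars are list medians and the dashed line is the median of all tested genes. The median is -0.92 for the 10 genes, -0.45 for mitochondrial beta-oxidation and -2.21 for the pan-endothelial genes, and with pan-endothelial scaling the median of all tested genes is 2.80.

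Markers of other cell types moved with the groups. Of 18 lung capillary genes 13 fell, and the 2 most abundant, Cd93 and Ednrb, stood at -1.61 and -2.63. The 12 macrophage genes, a cell type that also uses Lpl, Cd36, Fabp5 and Pparg, summed to 55.1 to 234 CPM in normal lung and 330 to 1482 CPM in metastases, with 4 of 8 tested genes risen. Their most abundant members were Lyz2, at 47.3 ± 46.4 and 723 ± 358 CPM, and Cd68, at 45.3 ± 24.3 and 103 ± 59.2 CPM. Metastasis library 1 was the lowest of its group in the macrophage sum, at 330 CPM, and in Lpl and Pparg. It was the highest of its group in Cd36 and Fabp5. It was also the highest in the pan-endothelial level (39.5% of the normal mean) and in the sum of the platelet genes given below (12143 CPM). The sort kept cells without CD45, a protein that macrophages carry. The part of these markers in the values of Lpl, Cd36, Fabp5 and Pparg was not tested.

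The 8 alveolar macrophage genes, led by Chil3 and Atp6v0d2, summed to 3.33 to 208 CPM in normal lung and 6.02 to 418 CPM in metastases. Of 4 tested genes 2 rose (Marco and Atp6v0d2). Siglecf, which did not pass the filter on low counts, was at 0.551 ± 1.20 and 0.183 ± 0.235 CPM. Of 9 adipocyte genes 6 were at 0 in every library (Adipoq, Plin1, Lep, Adrb3, Cidea and Ucp1), and the sum was at most 0.702 CPM in normal lung and 6.28 CPM in metastases, with Cidec and Retn as the most abundant. The 12 fibroblast genes, with Col3a1 and Col1a1 as the most abundant, summed to 9.14 to 60.8 CPM in normal lung and 336 to 923 CPM in metastases, with 6 of 8 tested genes risen. Of the 8 cardiomyocyte genes 4 were at 0 in every library, and the sum of 4.38 to 52.6 and 61.4 to 1039 CPM was nearly all Ttn, with Myl4 next.

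The 10 alveolar type 2 genes, led by Abca3 and Slc34a2, summed to 52.6 to 178 CPM in normal lung and 52.8 to 358 CPM in metastases. Of 7 tested genes 2 rose (Slc34a2 and Lamp3) and 1 fell (Abca3). The 9 epithelial and tumour genes, led by Krt8 and Krt19, summed to 1.11 to 13.4 and 10.4 to 53.1 CPM. The 6 platelet genes, led by Ppbp and Pf4, summed to 183 to 930.4 and 674 to 12143 CPM, and the 8 leukocyte genes, led by Ptprc and Laptm5, to 10.4 to 47.6 and 138 to 539 CPM. All 12 cell division genes rose, with Top2a and Mki67 as the most abundant. Their part in the values of the 10 fatty acid genes was not tested.

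**Figure D5:**
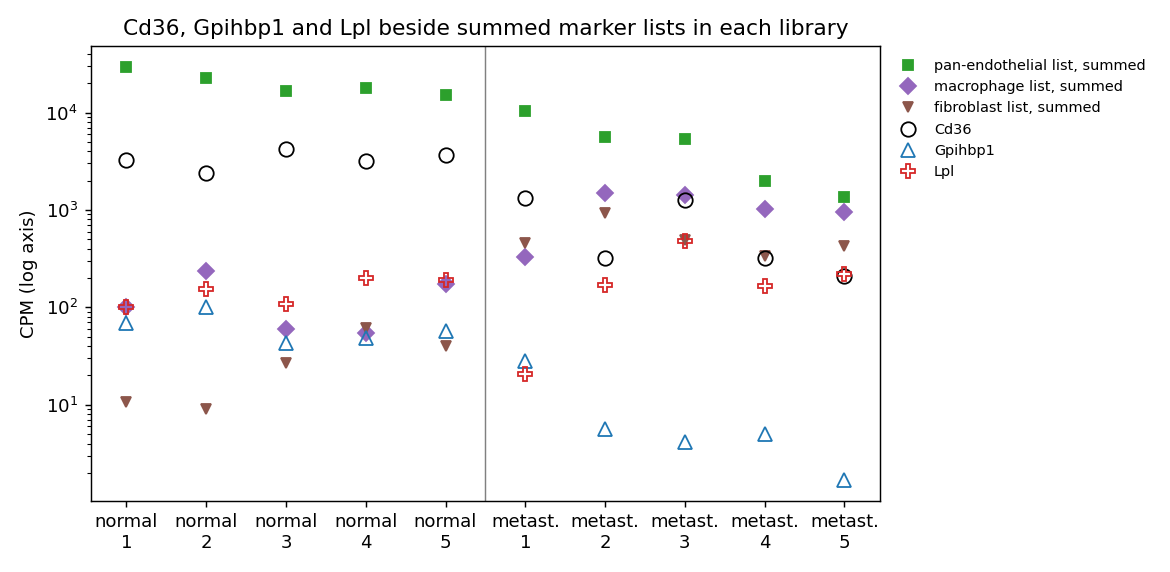
CPM on a log axis of Cd36, Gpihbp1 and Lpl (open symbols) and of the summed pan-endothelial, macrophage and fibroblast lists (filled symbols) in each library, normal lung on the left and metastases on the right of the grey line. The pan-endothelial sum and Gpihbp1 are lower in all metastasis libraries than in any normal library, while the macrophage sum is at 330 to 1482 CPM in metastases against 55.1 to 234 CPM in normal lung.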

How the data were processed

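Whole-number counts per gene were deposited for 10 libraries. Per the submitters' processing notes, HTSeq 0.6.1, TopHat2 2.0.13, DESeq2 1.6.3 and Cufflinks 2.2.1 were used with builds mm10 and GRCm38; for annotation and strand, nothing is given in the sources used here. The HTSeq summary categories (65.6 to 85.4% of each library's entries) were left out. The authors also deposited FPKM (fragments scaled by length and depth) for 24460 genes, used for levels between genes and as an alternative.

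Counts were filtered (filterByExpr), scaled by TMM and tested with edgeR 4.0.16 in R 4.3.3 (quasi-likelihood F test, two-sided, robust, without covariates); p-values were adjusted by Benjamini-Hochberg across 11823 genes with a threshold of 0.05. Rose, fell and called refer to that threshold. The SE is approximate: the fold change on the log2 scale divided by the root of F. CPM is on TMM-scaled libraries, and log2 CPM adds a prior count of 2. Ratios and pairs were compared by exact permutation tests over 252 splits. The fit was tested on simulated data; a gene that did not pass is not shown to be unchanged. The highest correlation between libraries was 0.923.

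The members and lists were chosen with earlier results of these data known. Named are all members, the 2 largest calls each way per pathway list (or its 2 most abundant genes where none was called), the 2 most abundant genes per marker list, the sort genes and 3 nearest genes for 6 members. A called pathway gene is not reported here. Some others were chosen after their values were seen, to complete small counts or as a gene's partner. Alternatives were DESeq2 1.42.0, other scalings and filters, limma 3.58.1 on FPKM (pseudocounts 1 and 0.1), a threshold of 0.01, a replicate block, libraries 1 and 2 apart from 3 to 5 (the order of columns in the FPKM table; no label names a batch), and leaving out libraries. Positions are from GENCODE M21, promoters from RefSeq; BLAST+ 2.17.0 found similar transcripts, and matplotlib 3.10.9 in Python 3.11.15 drew the plots.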

Additional observations from a re-analysis of the deposited data

Results flagged for a closer look

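In 5 of 20 sets (10 genes in each group of 5 libraries), the highest library stood apart from the rest by Dixon's test on CPM. This test flags about 1 in 20 sets by chance only where values follow a normal distribution. CPM values were not shown to do so and log2 CPM was not tested, so the 5 of 20 cannot be set against that rate. Gpihbp1 in metastasis library 1 was at 27.9 CPM, where the next library was at 5.69 CPM. Fabp5 in normal library 4 was at 7.15 CPM, with the next at 0.0706 CPM. Pparg in normal library 5 was at 4.13 CPM, with the next at 1.02 CPM, and Pparg in metastasis library 4 was at 13.3 CPM, with the next at 3.63 CPM. Cpt1a in metastasis library 3 was at 255 CPM, with the next at 119 CPM. The cause was not tested for any of them.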

How the results depend on the processing

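Scaling to the pan-endothelial genes changed most calls: of all tested genes 7090 rose and 19 fell, of the 10 genes 3 rose and 0 fell, and of the pathway genes 41 rose and 0 fell. By its construction it raises the metastasis values of all genes, endothelial ones included, against their normal values, as the endothelial set was lower in metastases. It reversed the sign of Cd36 (0.012), Cpt1a (1.11), Acsl1 (1.68), Acadm (2.89), Hadhb (1.87), Acaa1a (0.32) and Foxo1 (0.64).

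With libraries 1 and 2 alone, and so fewer samples, 487 genes rose and 201 fell, 0 of the 10 genes fell, and 2 pathway genes rose and 2 fell; with libraries 3 to 5 alone 3 pathway genes rose. Without metastasis libraries 4 and 5, 527 genes and 1 pathway gene fell. At an adjusted p under 0.01, 869 genes rose and 453 fell, and 1 of the 10 genes and 1 pathway gene fell. Pathway genes fallen numbered 7 with DESeq2, 1 with scaling by library totals, 8 with log2(FPKM + 1) and with log2(FPKM + 0.1), and 7 with a term for libraries 1 and 2. The cause was not tested.

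Leaving out each library in turn gave 0 to 1 of the 10 genes risen, 1 to 7 pathway genes fallen and 0 to 2 of the 10 genes passing against the pan-endothelial genes, while Cd36 (-2.67 to -2.04), Gpihbp1 (-3.97 to -2.57) and Cpt1a (-1.90 to -1.33) passed each time. Values near 0 changed sign: Lpl was at -0.067 with log2(FPKM + 1), with and without the filter, -0.10 with log2(FPKM + 0.1), -0.42 in libraries 1 and 2, and -0.12 to 0.76 over left-out libraries. Acadm was at 0.15 with library totals, 0.16 in libraries 3 to 5 and -0.75 to 0.068 over left-out libraries, and Fabp5 was at -0.35 in libraries 3 to 5. Over left-out libraries the ratio of Cd36 to the pan-endothelial genes was at -0.38 to 0.22, and Acsl1 minus Cpt1a at -0.20 to 0.76.

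Deviations of same-numbered libraries correlated at 0.000682 to 0.142, and 3 of 5 libraries correlated best with their own number. These values do not settle whether the replicate numbers pair the libraries. The main fit left the numbers out, and a replicate block was run as an alternative. With the replicate block Lpl was at -0.00592 and Fabp4 was called lower (-5.45, adjusted p = 0.0384), and no call among the 10 genes was lost. Depth limits Fabp4, Fabp5 and Pparg, where a count of 0 allows up to 0.149 CPM in the shallowest library by this measure, metastasis library 3.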
